A study of Mus musculus with 6 samples.

Results

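The genes of the respiratory chain and ATP synthase, which together make most of the ATP of an oxidative cell, were compared between induced pluripotent stem cells (iPSCs) of 2 origins. They were chosen by name: every gene whose array symbol starts with Ndufa, Ndufb, Ndufc, Ndufs or Ndufv (complex I), Sdh (complex II), Uqcr (complex III), Cox4, Cox5, Cox6, Cox7 or Cox8 (complex IV) or Atp5 (ATP synthase, complex V). This gave 94 of the 18193 genes that have a probe set of their own: 44 of complex I, 8 of complex II, 8 of complex III, 17 of complex IV and 17 of ATP synthase. The list holds 82 subunit genes and 12 assembly factors of complexes I and II, the Ndufaf and Sdhaf genes, which share the prefixes.

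All cells were mouse iPSC clones made from Nanog-GFP embryonic fibroblasts with retroviral Oct3/4, Sox2, Klf4, c-Myc and dsRed, grown on SNL feeder cells in medium with LIF and serum, and all were kept in 3i after picking. The name 3i stands for CHIR99021, PD184352 and SU5402 together, which inhibit GSK3, MEK and the FGF receptor. The (−)/(+) clones 1, 2 and 3 were reprogrammed without 3i, and the (+)/(+) clones 4, 5 and 6 also received it during reprogramming. The comparison asks what the earlier use of 3i leaves in cells that are later kept alike. Each sample is 1 clone on 1 Affymetrix array, so p-values measure the spread between clones, and since scan dates are not given in the sources used here, a batch that follows the groups cannot be told apart from them.

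In the inner mitochondrial membrane, complexes I and II pass electrons from NADH and succinate to ubiquinone, complex III passes them on to cytochrome c, and complex IV to oxygen. Complexes I, III and IV pump protons, and ATP synthase uses the returning protons to make ATP. Most subunits are encoded in the nucleus and imported, a few core subunits are encoded by mitochondrial DNA, and pluripotent cells are known to lean on glycolysis while keeping a working respiratory chain.

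Each array had been scaled to a trimmed mean signal of 500, and its median signal was 74.2 to 75.7 in (−)/(+) and 64.1 to 70.2 in (+)/(+) clones. The Gapdh 3′ to 5′ signal ratio lay between 0.82 and 0.87 in all 6. Of 12 pluripotency genes 12 were tested. At an adjusted p under 0.05 in limma 1, Fbxo15, was higher in (+)/(+) clones and 0 were lower, beside 1.55% and 1.41% of all tested genes. The log2 fold change of (+)/(+) over (−)/(+) was positive for 6 and negative for 6, with a median of 0.03. Of all tested genes 42.4% were positive and 57.6% negative. At an unadjusted p under 0.05, 3 of the 12 were higher and 2 lower, beside 8.74% and 12.1% of all tested genes. The summed signal of the list was 124576 to 132622 in (−)/(+) and 138851 to 147520 in (+)/(+) clones. The median signal of the 12 genes was 11551. Of all tested genes with a signal above 10000, 81.5% had a positive log2 fold change. Of 22 fibroblast markers, which stand for cells of origin and feeder cells, 21 have a probe set and 19 were tested. Of these, 8 were lower and 0 higher in (+)/(+) clones at an adjusted p under 0.05, beside 1.41% and 1.55% of all tested genes. The summed signal was 31448 to 41895 against 20694 to 24281. Col1a1 was below the filter in these cells, and Col1a2 had signals of 1441, 1701 and 2096 against 468, 694 and 558. These arrays measured bulk RNA, so fewer cells of a type and less RNA per cell cannot be told apart, and the part of fibroblast RNA in the values below was not tested.

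The respiratory chain as a whole differed little between the groups. Of the 94 genes, 91 passed the filter on low signal, and their log2 fold changes of (+)/(+) over (−)/(+) ranged from -0.48 for Ndufa4l2 to 0.53 for Sdhaf4. In the limma fit over all probe sets 2 genes were higher in (+)/(+) clones at an adjusted p under 0.05, Cox6c and Sdhaf4, and 0 were lower. Among all 11178 tested genes 1.55% were called higher and 1.41% lower. At an unadjusted p under 0.05, 22 of the 91 were higher and 1 was lower, beside 8.74% and 12.1% of all tested genes. For all tested genes with a signal from 5000 to 10000, these shares were 19.5% and 5.78%. Above 10000 they were 27% and 1.99%. The counts of 22 and 1 leaned on single clones and on the scaling. Of the 91, 11 were higher without clone 1, 6 without clone 6, and 12 higher with 6 lower after quantile normalization. The groups did not overlap for 23 genes that were higher and 5 that were lower, where all tested genes gave 10.5% and 15.8%. For all tested genes with a signal from 5000 to 10000, these shares were 22.9% and 7.76%. Above 10000 they were 33% and 3.98%. These 2 bands hold 36 and 22 of the 91 genes. For 90 of the 91 the whole 95% interval of the log2 fold change lay between -1 and 1, so a 2-fold difference lay outside it, and Ndufa4l2, with a dim signal and a lower bound of -1.18, was the exception. Of 48 genes with several tested probe sets, 32 had the same sign in all of them.

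**Figure D1:**
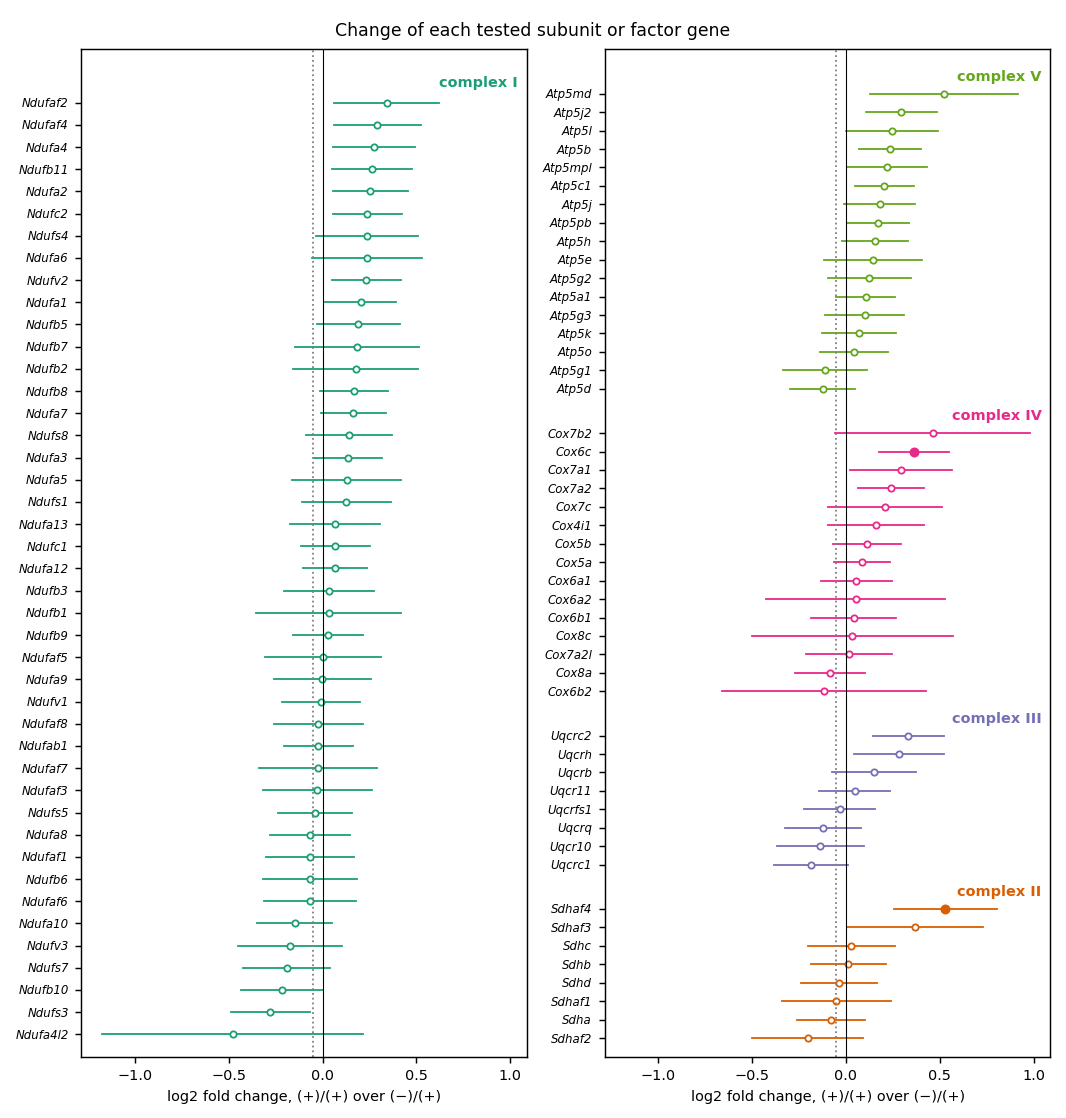
Log2 fold change of each tested gene, (+)/(+) over (−)/(+), with its 95% interval from limma, n = 3 clones per group. Filled points have an adjusted p under 0.05 (Cox6c and Sdhaf4), the dotted line is the median of all tested genes (-0.05), and most points of complexes IV and V lie right of 0.

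More genes of the list lay above 0 than below. Of 91, 62 had a positive and 29 a negative log2 fold change, while 42.4% of all tested genes were positive and 57.6% negative. The median log2 fold change was 0.07 for the list and -0.05 for all tested genes. By complex the median was 0.07 for complex I, -0.01 for complex II, 0.01 for complex III, 0.08 for complex IV and 0.15 for ATP synthase. That of complex I was 0.0061 without clone 1 and 0.0058 with quantile normalization. The signs depended on how the arrays were scaled: with quantile normalization 49 were positive and 42 negative, and with arrays scaled to a common median, which moves the median of all genes to 0.10, 84 were positive and 7 negative. The median of complex III was -0.05 in the first and 0.16 in the second setting, and that of ATP synthase stayed positive at 0.05 and 0.31.

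Log2 fold changes moved with the level of signal across the whole array, and most genes of the chain are bright. Their median mean signal was 6210, against 587 for all tested genes. All tested genes had a median log2 fold change of -0.11 up to a signal of 500, of -0.05 from 500 to 2000, of 0.01 from 2000 to 5000, of 0.05 from 5000 to 10000 and of 0.12 above 10000. In the band from 5000 to 10000, which holds 36 genes of the chain, their median was 0.05 and 61.1% were positive, beside 61.2% of all genes in the band. Above 10000, 22 of 22 genes of the chain were positive with a median of 0.17, beside 81.5% of all genes there. Relative to the median of its own band, the median was 0.03 for the list, 0.02 for complex I, -0.02 for complex II, -0.05 for complex III, 0.04 for complex IV and 0.06 for ATP synthase. With this level taken off, 52 genes lay above and 39 below their band. The part of the signal level in the sign of these genes was not tested further.

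**Figure D2:**
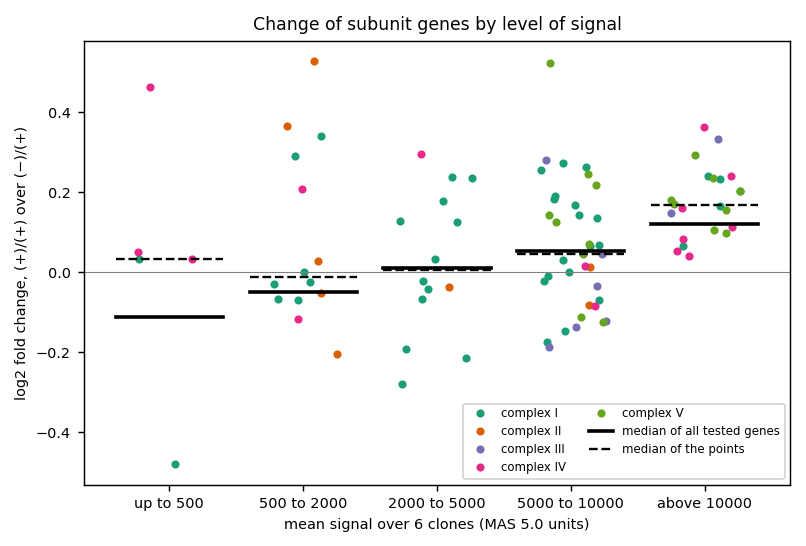
Log2 fold change of each tested gene of the chain (points, coloured by complex), (+)/(+) over (−)/(+), by its mean MAS 5.0 signal over 6 clones. The solid bars are the medians of all tested genes in the band and the dashed bars the medians of the points. The solid bars rise from left to right, and all 22 points above a signal of 10000 lie higher than 0.

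Complex I takes electrons from NADH and is the largest of the complexes. None of its 43 tested genes was called. At an unadjusted p under 0.05, 8 were higher and 1 was lower, beside 8.74% and 12.1% of all tested genes. A positive log2 fold change was seen in 26 and a negative one in 17, beside 42.4% and 57.6%. The median signal of complex I was 5298. Of all tested genes with a signal from 5000 to 10000, 61.2% were positive, 19.5% higher and 5.78% lower at that p. The 6 core subunits analysed lay on both sides: Ndufs1, Ndufs8 and Ndufv2 at 0.13, 0.14 and 0.23, and Ndufv1, Ndufs7 and Ndufs3 at -0.01, -0.19 and -0.28. Ndufs1, Ndufs7, Ndufs8 and Ndufv2 are among those that carry iron-sulfur clusters, and Ndufv1 holds the NADH binding site. Ndufs3, a core subunit of the arm that reaches into the matrix, had signals of 4440, 5264 and 4962 in (−)/(+) and of 3933, 4029 and 4086 in (+)/(+) clones. All 3 (+)/(+) clones lay below all (−)/(+) clones, but the difference did not pass the test (log2 fold change -0.28, 95% interval -0.49 to -0.07, adjusted p = 0.132 in limma). Ndufv2 went the other way, with signals of 10652, 11605 and 11471 against 12860, 12502 and 14325. The (+)/(+) clones were the 3 highest, at an adjusted p of 0.147 in limma, and its other probe sets gave smaller values of 0.11 and 0.10.

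Among the accessory subunits, Ndufc2 had signals of 9962, 10934 and 10286 in (−)/(+) and of 12390, 11465 and 12986 in (+)/(+) clones. Ndufa2 had 6183, 6894 and 7114 against 7719, 7833 and 8539. Both were separated without overlap, with log2 fold changes of 0.24 and 0.26 and adjusted p-values of 0.135 and 0.143 in limma. Ndufa4, which carries a complex I name but has since been placed in complex IV, had signals of 8092, 9349 and 8767 against 10229, 9651 and 11847. Its groups did not overlap either (log2 fold change 0.27, adjusted p = 0.151 in limma). Its paralog Ndufa4l2, known as a target of hypoxia-inducible factor, was dim in all clones, with 111, 112 and 79.0 against 35.1, 111 and 71.6, and the groups overlapped. Of the 8 Ndufaf assembly factors 3 had positive and 5 negative log2 fold changes. Ndufaf4 had signals of 1800, 1646 and 1895 against 2206, 2083 and 2250, without overlap, at an adjusted p of 0.147 in limma. A second, dimmer probe set of Ndufaf4 gave 0.12 with overlapping groups (adjusted p = 0.710 in limma). Ndufb4 has only a dim probe set of its own (15.9 to 32.9), and a bright probe set that it shares with Ndufb4b and Ndufb4c, chosen after its values were seen, had 5833, 7533 and 6659 against 8824, 7778 and 9230 (log2 fold change 0.37, adjusted p = 0.0947 in limma).

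Complex II, succinate dehydrogenase, is also an enzyme of the citric acid cycle and is built of 4 nuclear subunits. All 4 had small log2 fold changes: -0.08 for Sdha, which binds the flavin and succinate, 0.01 for Sdhb, which carries the iron-sulfur clusters, and 0.03 and -0.04 for the membrane anchors Sdhc and Sdhd. Sdha had signals of 6546, 6523 and 6845 in (−)/(+) and of 6485, 6104 and 6229 in (+)/(+) clones. The (+)/(+) clones were the 3 lowest by a small margin (95% interval -0.26 to 0.10, adjusted p = 0.597 in limma). For Sdhb, Sdhc and Sdhd the groups overlapped, and the 95% intervals of the 4 subunits lay between -0.26 and 0.26.

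The assembly factors of complex II spread wider. Sdhaf4, which helps Sdha join Sdhb, had signals of 1079, 1228 and 1224 in (−)/(+) and of 1570, 1609 and 1950 in (+)/(+) clones. Every (+)/(+) clone lay above every (−)/(+) clone, with clone 6 the highest. Sdhaf4 rose, with a log2 fold change of 0.53, a 95% interval of 0.25 to 0.80 and an adjusted p of 0.0492 in limma, close to the threshold. The call was lost when any 1 clone was left out: the adjusted p was 0.0756, 0.0752 and 0.123 without clones 1, 2 and 3, and 0.0793, 0.103 and 0.204 without clones 4, 5 and 6, while the log2 fold change stayed between 0.43 and 0.59. Sdhaf3, needed to mature Sdhb, had signals of 778, 1156 and 872 against 1248, 1326 and 1027. Its groups overlapped (log2 fold change 0.37, adjusted p = 0.231 in limma). The other 2 factors, Sdhaf2 and Sdhaf1, had log2 fold changes of -0.20 and -0.05.

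Complex III, the cytochrome bc1 complex, passes electrons from ubiquinol to cytochrome c. None of its 8 genes was called. Uqcrc2, a core protein, had signals of 11025, 10825 and 10649 in (−)/(+) and of 13854, 12381 and 14805 in (+)/(+) clones. The (−)/(+) clones lay close together and below all (+)/(+) clones (log2 fold change 0.33, 95% interval 0.14 to 0.52, adjusted p = 0.0633 in limma), and a second probe set gave 0.26. The other core protein, Uqcrc1, had 6214, 6984 and 6555 against 5992, 5922 and 5416. Here the (+)/(+) clones were the 3 lowest (log2 fold change -0.19, adjusted p = 0.257 in limma). Uqcrh, the hinge protein, had 6669, 6778 and 7523 against 9042, 7283 and 9276. Clone 5 fell among the (−)/(+) clones, and a log2 fold change of 0.28 had an adjusted p of 0.171 in limma. Uqcrb was at 0.15, the Rieske iron-sulfur protein Uqcrfs1 at -0.03, Uqcrq at -0.12 and Uqcr10 at -0.14. The probe sets of Uqcr10 disagreed: its groups overlapped in the brightest, while 2 dimmer ones gave 0.27 and 0.43 without overlap, at adjusted p-values of 0.207 and 0.0649 in limma.

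Complex IV, cytochrome c oxidase, has several subunits that exist as paralogs for different tissues. Cox6c, a small accessory subunit with no tissue paralog, had signals of 13200, 13707 and 13951 in (−)/(+) and of 17437, 16035 and 19236 in (+)/(+) clones. All (+)/(+) clones lay above all (−)/(+) clones. Cox6c rose, with a log2 fold change of 0.36, a 95% interval of 0.18 to 0.55 and an adjusted p of 0.0481 in limma. A second probe set had 11759, 12921 and 11277 against 14303, 14627 and 15699, also without overlap, and gave 0.31 at an adjusted p of 0.0678 in limma. As with Sdhaf4, leaving out any 1 clone ended the call: the adjusted p was 0.0826, 0.0953 and 0.127 without clones 1, 2 and 3, and 0.103, 0.0548 and 0.202 without clones 4, 5 and 6, with log2 fold changes of 0.30 to 0.43. With quantile normalization the adjusted p was 0.0800 for Cox6c and 0.0589 for Sdhaf4, and without a filter on low signal 0.128 and 0.0864.

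Of the 15 tested genes of complex IV, 13 had a positive log2 fold change, and apart from Cox6c none was called. Among all tested genes 42.4% were positive. This share was 35.2% up to a signal of 500, 61.2% from 5000 to 10000 and 81.5% above 10000. The tested genes of complex IV spread over these levels, with mean signals from 74.2 to 25270 and a median of 7550. Among the paralogs of wide use, Cox7a2 had 18701, 19504 and 20708 against 23701, 21445 and 24550. Its groups did not overlap (log2 fold change 0.24, adjusted p = 0.120 in limma), and its second probe set gave 0.29. Cox6a1, Cox6b1 and Cox8a were at 0.05, 0.04 and -0.09, with -0.19 and no overlap in a second probe set of Cox6a1, and Cox7a2l, which takes part in joining complexes III and IV, at 0.02. Of the paralogs best known from muscle, Cox7a1 had signals of 2356, 1745 and 1934 against 2408, 2481 and 2467. The (+)/(+) clones were the 3 highest by a margin that is narrow against clone 1 (log2 fold change 0.29, adjusted p = 0.203 in limma). Cox6a2 stayed between 65.7 and 97.0 in all clones, and Cox8b was below the filter at 2.89 to 33.6. Of those best known from testis, Cox6b2 had 1066, 2194 and 1285 against 1018, 1501 and 1537 with overlapping groups, Cox8c stayed between 137 and 258, and Cox7b2 between 47.8 and 103. Cox4i2, the hypoxia-linked partner of Cox4i1, was below the filter at 4.82 to 57.1. Cox5b and Cox7c were at 0.11 and 0.21, and a second probe set of Cox7c gave 0.01. Cox7b was not analysed here.

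**Figure D3:**
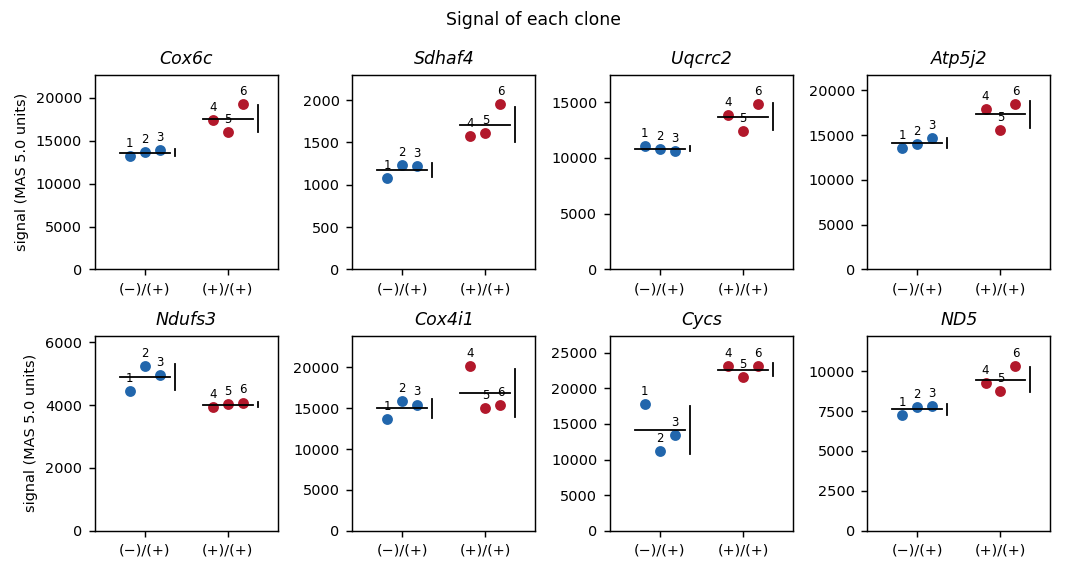
MAS 5.0 signal (linear axis from 0) of 8 genes in clones 1, 2 and 3 of the (−)/(+) group (blue) and 4, 5 and 6 of the (+)/(+) group (red), with the group mean (horizontal line) and SD (vertical line), n = 3. Cox6c, Sdhaf4, Uqcrc2, Atp5j2, Cycs and ND5 show higher (+)/(+) clones without overlap, Ndufs3 lower ones, and Cox4i1 a single high clone, 4.

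ATP synthase had the highest median of the 5 complexes, but none of its 17 genes was called. Of the 17, 15 had a positive log2 fold change, 7 were higher at an unadjusted p under 0.05 and 0 lower. Among all tested genes 42.4% were positive, 8.74% higher and 12.1% lower. These shares were 61.2%, 19.5% and 5.78% for all genes with a signal from 5000 to 10000. Above 10000 they were 81.5%, 27% and 1.99%. Atp5b, the catalytic beta subunit, had signals of 18584, 17908 and 18418 in (−)/(+) and of 22325, 22476 and 19970 in (+)/(+) clones. The groups did not overlap (log2 fold change 0.24, 95% interval 0.07 to 0.40, adjusted p = 0.110 in limma). Atp5a1, the alpha subunit, had 15481, 15379 and 16317 against 17291, 16612 and 16830, also without overlap but closer together (0.11, adjusted p = 0.424 in limma), and its other probe sets gave -0.02 and -0.04 with overlapping groups. The gamma subunit of the central stalk, Atp5c1, had 16388, 17071 and 17240 against 19689, 18678 and 20043. Its groups were separate as well (0.20, adjusted p = 0.137 in limma), while a dim probe set of Atp5c1 gave -0.31 with overlapping groups. Atp5d went the other way, with 7662, 7996 and 7779 against 7122, 7287 and 7084. Its groups did not overlap (-0.12, adjusted p = 0.389 in limma), and a second probe set gave -0.16, also without overlap. Atp5d was named after its values were seen.

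In the membrane part, Atp5j2, the f subunit, had signals of 13541, 14048 and 14691 in (−)/(+) and of 17922, 15577 and 18451 in (+)/(+) clones. All (+)/(+) clones were higher (log2 fold change 0.29, 95% interval 0.10 to 0.48, adjusted p = 0.0869 in limma), a second bright probe set gave 0.39, and 1 dim probe set gave -0.46 with overlapping groups. Atp5md, known to hold ATP synthase dimers together in rows, had 4972, 8855 and 6406 against 8655, 8995 and 10790. Clone 2 lay above clone 4, and the log2 fold change of 0.52 had a wide 95% interval of 0.13 to 0.92 (adjusted p = 0.131 in limma). Without clone 2 Atp5md had an adjusted p of 0.0307. Atp5mpl and the peripheral stalk subunit Atp5pb were at 0.22 and 0.17. The c subunit that forms the rotor ring is encoded by 3 genes whose mature proteins are the same: Atp5g1 was at -0.11, Atp5g2 at 0.13 and Atp5g3 at 0.10. Their adjusted p-values in limma were 0.549, 0.499 and 0.586, so no shift among the 3 genes was detected with 3 clones per group.

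Promoter windows of these genes were searched for the letters of 4 motifs, and binding of the factors was not measured. NRF1 and the ETS factor GABP are the textbook nuclear regulators of respiratory chain genes, and YY1 and ERR alpha are also known to bind many of them. RefSeq windows (GRCm38.p6, from 250 bases before to 50 after the start of a gene) were at hand for 78 of the 94 genes, as 83 windows. On either strand, the NRF1 core GCATGCGC was found in 13.3% of these windows, in 5.37% of the windows of tested genes and in 2.71% of all 32851 windows. The ETS motif CCGGAAG was found in 26.5%, 17.6% and 8.86%, the YY1 motif AAGATGGC in 12.0%, 4.47% and 2.75%, and the ERR motif AAGGTCA in 9.64%, 3.17% and 4.72%. At least 1 of the 4 was in 48.2% of the windows of the chain, in 27.6% of those of tested genes and in 17.6% of all. The median log2 fold change of tested genes of the chain with and without a motif was 0.05 and 0.08 for NRF1, 0.05 and 0.09 for ETS, 0.15 and 0.07 for YY1 and 0.10 and 0.07 for ERR, differences that were not tested. The last 120 bases before the start are shown for 5 genes, 5′ to 3′ on the strand of the gene, with the motifs in capitals. Atp5g2 (chr15:102671048-102671167, minus strand) and Ndufaf4 (chr4:24897963-24898082, plus strand) hold a palindrome in which the NRF1 core reads on both strands with overlap. Uqcrh (chr4:116075071-116075190, minus strand) and Ndufs3 (chr2:90904722-90904841, minus strand) hold an ETS motif that starts 10 and 27 bases before the start of the gene, in Uqcrh read on the opposite strand, and their log2 fold changes of 0.28 and -0.28 have opposite signs. Sdhaf4 (chr1:24005641-24005760, minus strand), a gene that was called, holds none of these letters in the stretch shown.
Atp5g2: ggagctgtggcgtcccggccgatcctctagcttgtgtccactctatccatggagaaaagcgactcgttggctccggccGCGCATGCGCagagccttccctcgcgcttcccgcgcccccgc
Ndufaf4: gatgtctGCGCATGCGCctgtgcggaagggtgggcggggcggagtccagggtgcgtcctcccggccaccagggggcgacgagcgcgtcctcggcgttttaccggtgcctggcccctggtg
Uqcrh: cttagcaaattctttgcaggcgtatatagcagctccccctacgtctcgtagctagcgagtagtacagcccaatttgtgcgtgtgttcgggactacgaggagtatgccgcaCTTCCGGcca
Ndufs3: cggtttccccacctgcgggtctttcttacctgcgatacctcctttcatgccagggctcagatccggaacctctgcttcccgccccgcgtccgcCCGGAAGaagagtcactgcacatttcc
Sdhaf4: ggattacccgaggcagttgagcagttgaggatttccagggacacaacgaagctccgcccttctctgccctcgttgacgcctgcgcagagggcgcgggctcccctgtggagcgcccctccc

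The clones within a group also differed from each other in these genes. For each gene the shift of a clone was taken as its log2 value minus the median of the 6 clones. Over the 91 genes the (−)/(+) clones 1, 2 and 3 had median shifts of -0.10, 0.00 and -0.02, and the (+)/(+) clones 4, 5 and 6 had 0.07, -0.01 and 0.06. Clone 1 was the lowest of the 6 for 49 of the 91 genes, while it was the lowest for 16.5% of all tested genes. Clone 6 was the highest for 36, beside 11.8% of all tested genes. Clone 5 stayed near the middle, with a median shift of -0.01 for ATP synthase beside 0.11 and 0.13 in clones 4 and 6. All genes with a mean signal above 5000 had median shifts of -0.04, -0.04 and -0.01 and of 0.08, -0.01 and 0.05 in the same order.

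**Figure D4:**
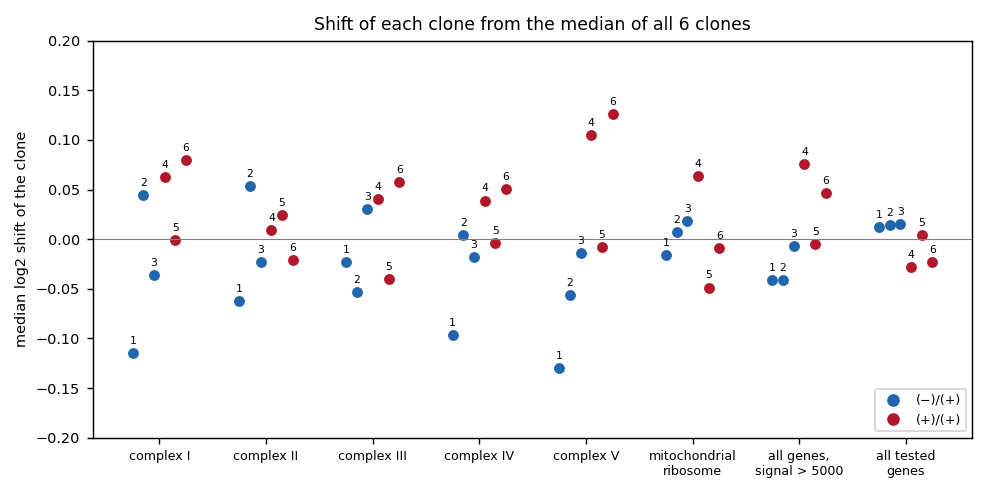
Median log2 shift of each clone (numbered points) from the median of the 6 clones, for the tested genes of each complex and, for comparison, for mitochondrial ribosomal proteins, all genes with a mean signal above 5000 and all tested genes. Clone 1 lies lowest in complexes I, II, IV and V, and clone 5 near 0 in ATP synthase.

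Clones 4 and 1 carry shifts of whole chromosomes, 8 and 11, on which 8 tested genes of the chain lie. On chromosome 8 the median shift of clone 4 was 0.41 over 329 genes. The 3 genes of the chain there, Cox4i1, Ndufa13 and Ndufb7, were all highest in clone 4. Cox4i1, the widely used form of subunit 4, had signals of 13649, 15889 and 15452 in (−)/(+) and of 20219, 14977 and 15443 in (+)/(+) clones, so that clone 4 stood above 5 clones that overlapped. Ndufb7 had 5163, 4615 and 5069 against 7341, 5152 and 4685 in the same pattern. In clone 4 the shifts of Cox4i1, Ndufa13 and Ndufb7 were 0.39, 0.26 and 0.52, and the median shifts of the 20 nearest genes of each were 0.43, 0.51 and 0.41. On chromosome 11 the median shift of clone 1 was 0.27 over 502 genes. There Atp5g1, Uqcr10, Uqcrq and Ndufaf8 shifted by 0.17, 0.21, 0.18 and 0.11 in clone 1, against its own trend in these genes, and Atp5h by -0.10. Chromosome 6 as a whole had a median shift between -0.04 and 0.05 in every clone. The 5 genes of the chain there, Ndufa4, Ndufa5, Ndufa9, Ndufb2 and Sdhaf3, were all lowest in clone 1, with shifts of -0.23, -0.37, -0.16, -0.40 and -0.48. The median shifts of their 20 nearest genes, 17 for Sdhaf3, were -0.25, -0.09, 0.16, -0.04 and -0.23 in clone 1. Ndufa4 is among the genes near Sdhaf3. Ndufa13, Ndufb7, Ndufa5, Ndufa9, Ndufb2, Ndufaf8 and Atp5h were named for their place on these chromosomes after their values were seen.

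**Figure D5:**
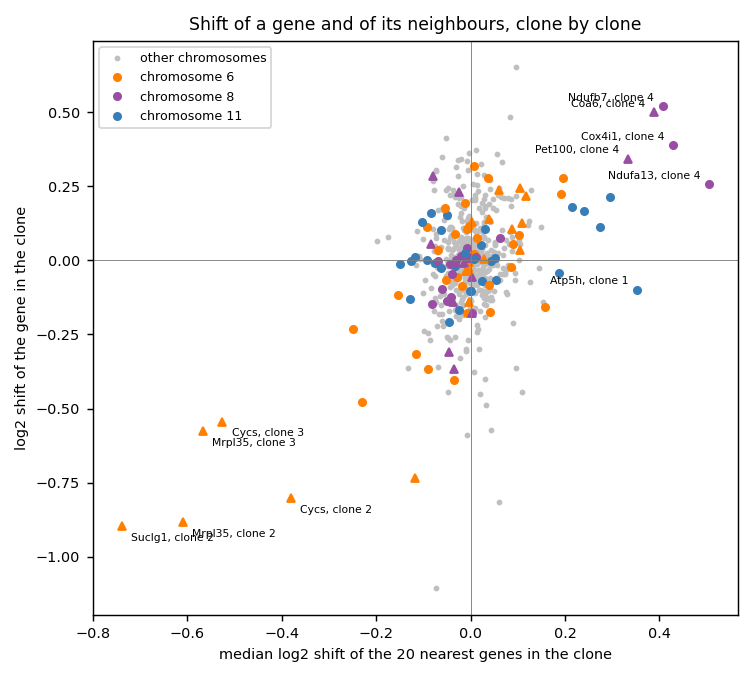
Log2 shift of a gene in a clone (vertical) against the median shift of its nearest genes in that clone (horizontal, up to 20 genes and at least 12). Shown are the 91 genes of the chain (circles) and 5 other mitochondrial genes (triangles). Genes of chromosome 8 in clone 4 lie at the upper right. Cycs, Mrpl35 and Suclg1 of chromosome 6 in clones 2 and 3 lie at the lower left, apart from Suclg1 in clone 3. That point is low (-0.73), but its nearest genes shifted by only -0.12.

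Genes that work beside the chain were counted in the same fit, in which 1.55% of all tested genes were called higher and 1.41% lower. Of 35 tested genes of cytochrome c, cytochrome c1 and assembly factors of complexes I, III and IV and ATP synthase, 1 rose and 0 fell. Cycs, the cytochrome c that carries electrons from complex III to IV, had signals of 17786, 11233 and 13433 in (−)/(+) and of 23090, 21602 and 23208 in (+)/(+) clones. The (+)/(+) clones lay close together above all (−)/(+) clones, of which 2 and 3 were the lowest. Cycs rose, with a log2 fold change of 0.70, a 95% interval of 0.40 to 1.01 and an adjusted p of 0.0295 in limma, but it lies on chromosome 6 in a stretch that is low in clones 2 and 3: its own shifts there were -0.80 and -0.54, and those of its 20 nearest genes -0.38 and -0.53. The part of that stretch in its difference was not tested. The adjusted p of Cycs was 0.00432 without clone 1, and 0.0510, 0.0986, 0.0876, 0.0703 and 0.131 without clones 2, 3, 4, 5 and 6. Coa5 and Coa3 were at -0.45 and -0.35, with adjusted p-values of 0.0972 and 0.101 in limma. Of the mitochondrially encoded subunits only ND5 of complex I has a probe set of its own here. ND5 had signals of 7231, 7765 and 7817 against 9278, 8776 and 10351, with all (+)/(+) clones higher (log2 fold change 0.31, 95% interval 0.11 to 0.51, adjusted p = 0.0840 in limma).

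Of 21 tested factors of mitochondrial biogenesis 0 rose and 1 fell. Pprc1, a coactivator related to PGC-1 alpha, had signals of 2950, 3113 and 3049 in (−)/(+) and of 2299, 2276 and 2181 in (+)/(+) clones. The groups were far apart against their spread, and Pprc1 fell, with a log2 fold change of -0.43, a 95% interval of -0.64 to -0.22 and an adjusted p of 0.0402 in limma. Without clones 2, 3, 4, 5 and 6 in turn its adjusted p was 0.0823, 0.130, 0.0770, 0.101 and 0.170, and it was 0.0419 without clone 1. Esrra, the gene of ERR alpha, had 496, 467 and 378 against 250, 292 and 314, without overlap (log2 fold change -0.62, adjusted p = 0.0639 in limma). Gabpb1, the partner of GABP alpha, had 676, 654 and 553 against 903, 840.4 and 850.5, in the opposite direction (0.46, adjusted p = 0.0783 in limma). Nrf1, Gabpa and Tfam, the packaging and transcription factor of mitochondrial DNA, were at -0.01, 0.01 and 0.15. These 3 were chosen for their role after their values were seen, and Ppargc1a, the gene of PGC-1 alpha, was below the filter.

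Of 18 genes of the citric acid cycle and pyruvate dehydrogenase 0 were called. At an unadjusted p under 0.05 in limma, 4 were higher and 2 lower, beside 8.74% and 12.1% of all tested genes. Their median signal was 4162, and with a signal from 2000 to 5000 these shares of all tested genes were 14.6% and 10.9%. Ogdh was at -0.56 (adjusted p = 0.0512 in limma), Cs, citrate synthase, at -0.29 and Suclg1, which lies on chromosome 6, at 0.62 with its low clones 2 and 3. Of 76 mitochondrial ribosomal protein genes, which make the subunits encoded by mitochondrial DNA, 1 rose and 2 fell. Mrpl32 had signals of 2588, 2604 and 2523 in (−)/(+) and of 3300, 3307 and 3557 in (+)/(+) clones (log2 fold change 0.39, adjusted p = 0.0491 in limma). Mrps12 had 3033, 3179 and 3274 against 2308, 2301 and 2401, and Mrps34 had 2692, 3141 and 3195 against 2357, 2108 and 1989. Both fell, by 0.43 and 0.48 on the log2 scale (adjusted p = 0.0395 and 0.0492 in limma). Without clones 1 to 6 in turn the adjusted p of Mrpl32 was 0.0597, 0.0839, 0.156, 0.0895, 0.109 and 0.204. That of Mrps12 was 0.0375, 0.0769, 0.138, 0.0864, 0.106 and 0.142, and that of Mrps34 was 0.0290, 0.103, 0.164, 0.0674, 0.126 and 0.1997, so both stayed called without clone 1 alone. The median log2 fold change of the 76 was -0.02, beside 0.07 for the genes of the respiratory chain and ATP synthase.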

How the data were processed

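Total RNA of 6 iPSC clones was labelled with biotin and hybridised to 1-colour Affymetrix mouse arrays. The authors deposited MAS 5.0 signal intensity values, 1 per probe set on a linear scale. The mean of each array without the highest and lowest 2% was 500, a scaling that was kept. Presence calls and probe-level data were not used here. The number of arrays limits the precision.

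Of 45101 probe sets 64 controls were left out, and those annotated to 1 gene symbol (34945) could stand for a gene. The brightest such probe set by mean log2(signal + 16) represented its gene. Tested were the 22518 probe sets whose mean exceeded 6.38 on this scale, the median of all, and 11178 genes had one of these as their own. Fold changes of dim genes are understated by the added 16. The groups were compared with limma 3.58.1 in R 4.3.3 (lmFit, eBayes with trend), with Benjamini-Hochberg adjustment over all tested probe sets, and 95% intervals came from the same fit. Plots were made in matplotlib 3.10.9 under Python 3.11.15. On simulated data with 200 changed probe sets of 22518, the test recovered 3% of 1.5-fold, 47.5% of 2-fold and 85.5% of 3-fold changes.

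The genes and lists were chosen with earlier results of these data known. Named were all called genes, up to 6 further genes per complex with the smallest p, tissue paralogs, core subunits, up to 3 genes of each other list with the smallest p, and others where said. As alternatives the arrays were quantile normalized or given one median, the pseudocount was 1 or 64, the filter was dropped or raised to a signal of 500, the trend was left out of eBayes, arrayWeights was added, probe sets of a gene were averaged, the methods' t-test was run, and clones or the genes of chromosomes 6, 8, 11 and Y were left out.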

Additional observations from a re-analysis of the deposited data

How the results depend on the processing

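The 2 calls higher in (+)/(+) clones, Cox6c and Sdhaf4, stayed under a pseudocount of 64 and a mean signal above 500. Quantile normalization gave 0 higher calls, medians of 0.0059 for all genes of the chain, -0.052 for complex III, 0.038 for complex IV and 0.048 for ATP synthase, 0 calls among cytochrome c and assembly genes and 1 in the citric acid cycle. Scaling to a common median gave 5 higher calls (Atp5b, Atp5j2, Cox6c, Sdhaf4 and Uqcrc2), medians of 0.23 for all, 0.22, 0.15, 0.16, 0.24 and 0.31 for complexes I to V, 2 assembly calls and 3 in the citric acid cycle. A pseudocount of 1 left 1 higher call, Cox6c. No filter, eBayes without trend and the methods' t-test after adjustment each gave 0 higher calls and 0 calls among assembly, biogenesis and mitochondrial ribosome genes. With arrayWeights 4 genes were higher and 1 lower, with 4 assembly, 2 biogenesis and 4 citric acid cycle calls. The methods' t-test without adjustment gave 18 higher and 3 lower genes, with 6 assembly, 8 biogenesis, 4 citric acid cycle and 13 mitochondrial ribosome calls.

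Leaving out each clone in turn gave 0 to 1 higher calls (Atp5md, without clone 2) and medians of 0.035 to 0.13 for all, -0.041 to 0.050 for complex II and 0.070 to 0.18 for complex IV. It gave 0 to 3 assembly, 0 to 1 biogenesis, 0 to 1 citric acid cycle and 0 to 3 mitochondrial ribosome calls. Without clones 1 and 4 there were 0 higher calls, 3 assembly calls and 1 citric acid cycle call, and the median of complex IV was 0.021. Without chromosomes 6, 8, 11 and Y, which removes Cycs, there were 0 assembly calls, 3 higher calls (Uqcrc2 was added) and a median of 0.10 for complex III. The mean of all probe sets gave 0 higher calls, 0.094 for complex III and 1 mitochondrial ribosome call. The cause of these moves was not tested, apart from the genes left out. Over the single genes, 1325 values kept their direction and side of the threshold, 47 came to pass it, 75 no longer passed it, 86 changed sign among values called in neither fit, and 0 called values changed sign. No paired analysis was possible because no clone number occurs in both groups. On simulated data the test recovered 3% of 1.5-fold changes with 3 clones per group.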

Other observations

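The genes of the cytosolic ribosome, a list added after the values of the arrays were seen, gave a second set of bright genes to set beside the respiratory chain. Of 45 tested, 40 had a positive log2 fold change, the median was 0.14, and 0 were called at an adjusted p under 0.05 in limma. At an unadjusted p under 0.05, 13 were higher and 2 lower, beside 8.74% and 12.1% of all tested genes. Of all tested genes with a signal above 10000, 81.5% were positive, 27% higher and 1.99% lower at that p. Cyct, the cytochrome c best known from testis, had signals of 2202, 428 and 770.5 in (−)/(+) and of 1253, 2446 and 2947 in (+)/(+) clones, a spread within groups wider than for Cycs (log2 fold change 1.19, adjusted p = 0.198 in limma). Cyc1, the cytochrome c1 of complex III that the prefixes leave out, was at -0.14. Both were named after their values were seen.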
